A study of Mus musculus with 8 samples.

Results

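Desmosomes are cell-cell junctions that tie the intermediate filaments of neighbouring cells together. Desmogleins and desmocollins are the adhesive cadherins that span the membrane. Inside the cell, plakoglobin and the plakophilins, which are armadillo proteins, join the cadherin tails to plakins such as desmoplakin, and desmoplakin holds the filaments. In the outer epidermis desmosomes mature into corneodesmosomes, in which corneodesmosin is added outside the cell, and the plakins envoplakin and periplakin help to lay the base of the cornified envelope. Desmosomes are best known from epithelia, heart muscle and mesothelium, and fibroblasts mainly use adherens junctions.

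Described here are 10 genes of this machinery among the 32859 genes of the deposited table, found there by gene symbol. They are Cdsn (corneodesmosin), Ppl (periplakin), Evpl (envoplakin), Dsp (desmoplakin), Jup (plakoglobin), Pkp1, Pkp2 and Pkp3 (plakophilins), Dsg2 (desmoglein 2) and Dsc2 (desmocollin 2). RNA was sequenced from primary portal fibroblasts of the mouse liver in 2 groups of 4 libraries, 1 with Klf4 overexpressed from a lentivirus (Lenti-Klf4) and 1 with the control virus (Lenti-Ctrl). Both groups started from Clec3b-tdT+ cells sorted from normal Clec3bCreERT2;R26tdT mice, in which an inducible Cre driven by Clec3b switches on a red reporter. Mouse age, time after transduction and the animals behind each library are not stated in the labels, so p-values measure only the spread between libraries, which may be technical. The genes were chosen by their counts in this same contrast of Lenti-Klf4 with Lenti-Ctrl, so their differences are a description and carry no test.

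Total counts were 57950960 to 82847723 per Lenti-Klf4 library and 57306334 to 87361995 per Lenti-Ctrl library. Klf4 itself stood at 201 to 241 CPM (read counts relative to library size, scaled by TMM factors) in Lenti-Klf4 and 83.0 to 92.3 CPM in Lenti-Ctrl; the sources do not say if vector RNA was counted with it. The 12 fibroblast markers examined were all present in the table and summed to 11679 to 13341 CPM in Lenti-Klf4 and 28749 to 30319 CPM in Lenti-Ctrl, although Clec3b itself had only 73 counts over the 4 Lenti-Klf4 libraries and 4 over the 4 Lenti-Ctrl libraries. Of all 18439 genes tested, 72.2% passed an adjusted p of 0.05 in edgeR's quasi-likelihood test, 37.5% higher and 34.7% lower in Lenti-Klf4. That is 6914 genes higher and 6393 lower, against 8542 higher and 5268 lower when log2(FPKM + 1) was tested with limma and 8328 higher and 5172 lower when library totals alone set the scale. That last choice moved the median log2 fold change by 0.195, so the direction of smaller differences depends on the scaling.

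Of the 10 desmosome genes, 6 were higher and 2 lower in Lenti-Klf4 past that threshold, and 2 did not pass it. The groups did not overlap for those same 8 genes, 6 higher and 2 lower, where 69.2% of all genes tested did not overlap, 36% higher and 33.2% lower. Since the genes were chosen from this contrast, nothing is read from these counts. Cdsn, Ppl, Evpl, Dsp, Pkp1 and Pkp3 were higher, Jup and Pkp2 were lower, and Dsg2 and Dsc2 overlapped. All 10 passed the filter on low counts, but Ppl passed it only through the Lenti-Klf4 libraries. In RNA from whole cultures, a change in the number of cells of a type and a change in RNA per cell cannot be told apart.

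**Figure D1:**
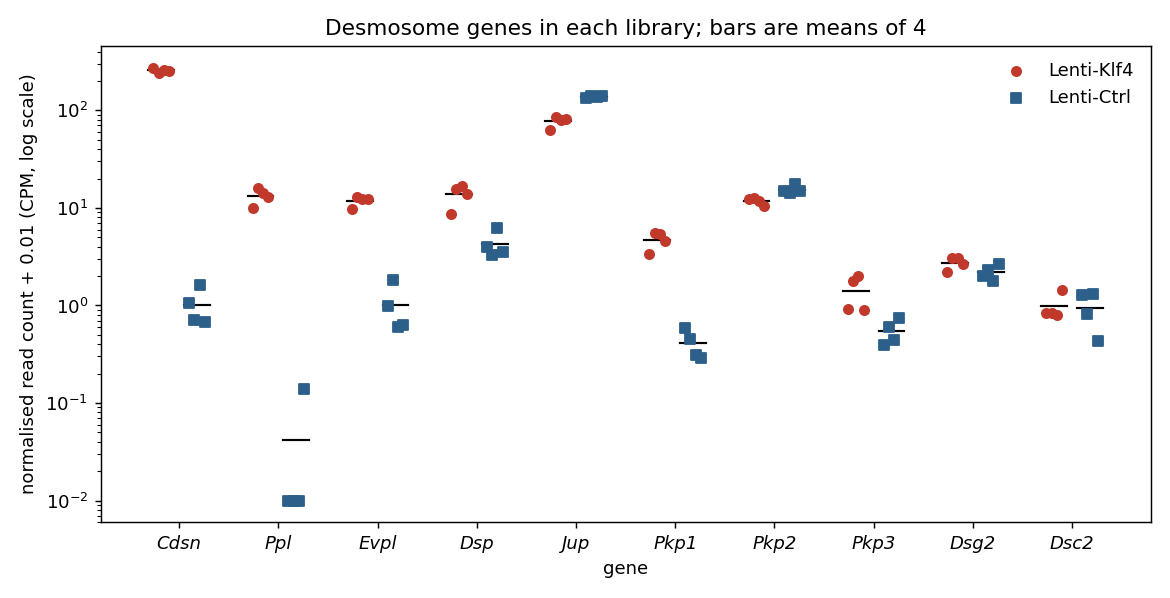
Normalised read count plus 0.01 CPM (log scale) of the 10 desmosome genes in each of the 4 Lenti-Klf4 (circles) and 4 Lenti-Ctrl (squares) libraries, with the group means as bars. Cdsn lies between 242 and 274 CPM in Lenti-Klf4 and between 0.663 and 1.62 CPM in Lenti-Ctrl, while Dsg2 and Dsc2 overlap between the groups.

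Corneodesmosin reached the highest level of the set in Lenti-Klf4. Cdsn (ENSMUSG00000039518, chromosome 17, 35863025 to 35868077, plus strand, GRCm39) encodes a secreted adhesive glycoprotein of corneodesmosomes and of the inner root sheath of the hair. It was at 274, 242, 257 and 254 CPM in Lenti-Klf4 replicates 1 to 4, against 1.05, 0.701, 1.62 and 0.663 CPM in Lenti-Ctrl replicates 1 to 4. Every Lenti-Klf4 library lay far above every Lenti-Ctrl library, and the spread among the Lenti-Klf4 libraries was small. The means were 257 ± 13.1 CPM and 1.01 ± 0.444 CPM (SD, n = 4 each), a 255-fold difference with a log2 fold change of 8.00 (SE 0.146). These values rest on 15068 to 24081 counts per Lenti-Klf4 library and 36 to 87 counts per Lenti-Ctrl library. Ranked by mean FPKM, which is scaled by length and so allows genes to be compared, Cdsn was number 428 of 32859 genes in Lenti-Klf4 and number 14829 in Lenti-Ctrl.

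Promoter windows from RefSeq (GRCm38.p6) were at hand for 3 of the 10 genes, Cdsn, Dsp and Jup, and they are shown because these genes cover a large increase, a smaller increase and a decrease in Lenti-Klf4. Each window runs from 250 bases before to 50 bases after an annotated start site. The capitals mark the CACCC box (CACCC, or GGGTG on the other strand) and the GC box (GGGCGG, or CCGCCC on the other strand), both known as binding motifs of Kruppel-like and Sp factors. The windows are chr17:35551878-35552177 (plus strand) for Cdsn, chr13:38151044-38151343 (plus strand) for Dsp and chr11:100397741-100398040 (minus strand) for Jup.
Cdsn: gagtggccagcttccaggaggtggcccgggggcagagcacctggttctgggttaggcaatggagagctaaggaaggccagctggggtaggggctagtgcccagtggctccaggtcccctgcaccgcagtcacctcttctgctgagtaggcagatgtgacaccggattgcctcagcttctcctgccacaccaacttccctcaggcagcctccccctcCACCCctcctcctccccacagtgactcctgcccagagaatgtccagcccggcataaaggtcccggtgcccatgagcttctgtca
Dsp: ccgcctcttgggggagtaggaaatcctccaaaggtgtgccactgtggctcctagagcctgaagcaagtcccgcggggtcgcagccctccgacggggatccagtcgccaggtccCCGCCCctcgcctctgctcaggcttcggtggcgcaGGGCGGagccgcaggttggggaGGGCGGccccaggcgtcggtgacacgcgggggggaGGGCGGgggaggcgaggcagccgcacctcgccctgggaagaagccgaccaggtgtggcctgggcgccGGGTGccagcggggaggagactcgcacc
Jup: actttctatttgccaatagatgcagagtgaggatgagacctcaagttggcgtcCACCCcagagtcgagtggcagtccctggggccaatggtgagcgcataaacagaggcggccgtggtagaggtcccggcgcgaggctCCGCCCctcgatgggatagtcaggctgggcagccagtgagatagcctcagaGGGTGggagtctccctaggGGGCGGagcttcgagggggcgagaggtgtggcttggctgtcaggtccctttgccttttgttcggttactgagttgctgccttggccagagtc

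The Cdsn window held 1 CACCC box, which begins 34 bases before the start site, and no GC box. In the GENCODE annotation of GRCm38, the transcript that the deposited table lists for Cdsn begins at the start site of this window. The same holds for Dsp, whereas no GENCODE transcript begins at the start site of the Jup window. RefSeq lists a second, more distant start of Cdsn, and its window held neither motif. The Dsp window held 1 CACCC box and 4 GC boxes, and the Jup window held 2 of each. Over all 32851 promoter windows of the same length, 57.5% held a CACCC box and 35.7% held a GC box, so both motifs are common. GC content was 63.0% in the Cdsn window, 73.0% in the Dsp window and 60.7% in the Jup window. The matches describe letters only, and motif overlap was allowed in the search.

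The make-up of the set differed between the groups. The summed level of the 10 genes was 116 ± 1.84 FPKM in Lenti-Klf4 and 22.5 ± 0.517 FPKM in Lenti-Ctrl (SD, n = 4 each). Cdsn made up 81.9 ± 2.67% of that sum in Lenti-Klf4 and 1.43 ± 0.620% in Lenti-Ctrl. Jup made up 10.2 ± 1.48% in Lenti-Klf4 and 82.7 ± 1.74% in Lenti-Ctrl. The level of Cdsn was 54.7 to 115 times that of Dsp in the Lenti-Klf4 libraries and 0.669 to 0.950 times that of Dsp in the Lenti-Ctrl libraries.

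**Figure D2:**
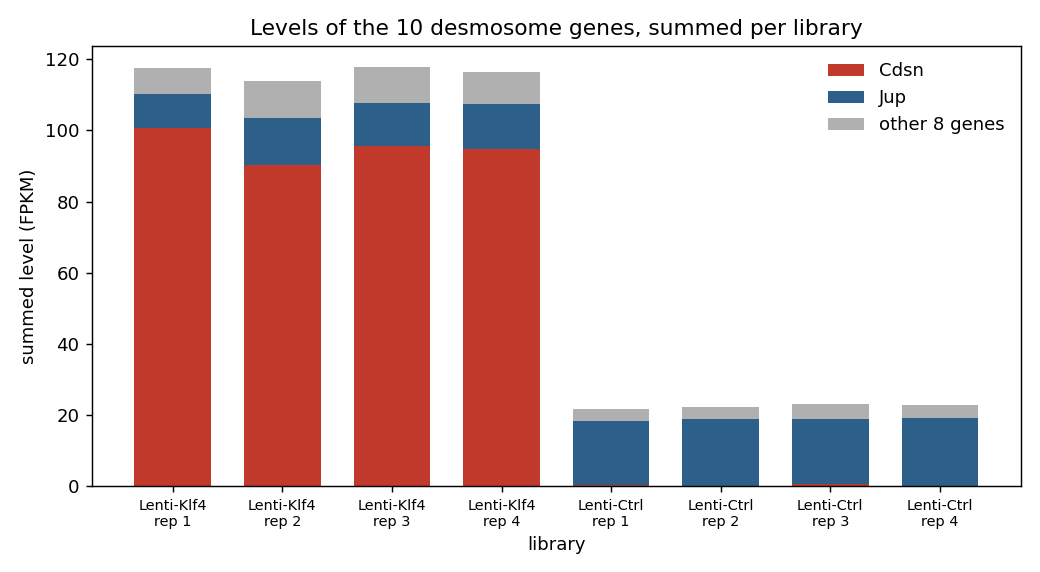
Levels (FPKM) of the 10 desmosome genes summed in each library, split into Cdsn, Jup and the other 8 genes, with the 4 Lenti-Klf4 libraries left of the 4 Lenti-Ctrl libraries. Cdsn fills most of each Lenti-Klf4 bar, at 90.3 to 101 FPKM, and Jup most of each Lenti-Ctrl bar, at 18.1 to 19.1 FPKM.

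The plakins, which reach from the junction to the filaments, are represented in the set by Ppl, Evpl and Dsp, all higher in Lenti-Klf4. Ppl (ENSMUSG00000039457, chromosome 16, 4904155 to 4950285, minus strand) encodes periplakin, which links the cornified envelope and desmosomes to keratin filaments. It was at 9.95, 16.1, 14.3 and 13.1 CPM in Lenti-Klf4 replicates 1 to 4, against 0, 0, 0 and 0.129 CPM in Lenti-Ctrl replicates 1 to 4. All Lenti-Ctrl counts of Ppl were 7 counts in replicate 4. The means were 13.3 ± 2.58 CPM in Lenti-Klf4 and 0.0322 ± 0.0644 CPM in Lenti-Ctrl (SD, n = 4 each), a 414-fold difference with a log2 fold change of 8.78 (SE 0.512). The size of this fold rests on that 1 Lenti-Ctrl library, since the others hold no count of Ppl.

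Evpl (ENSMUSG00000034282, chromosome 11, 116111385 to 116128903, minus strand) encodes envoplakin, the partner with which periplakin forms heterodimers. It was at 9.65, 13.1, 12.4 and 12.3 CPM in Lenti-Klf4, against 0.984, 1.79, 0.596 and 0.626 CPM in Lenti-Ctrl. The groups did not overlap, and the log2 fold change was 3.56 (SE 0.297). The levels of the heterodimer partners were close to each other in every Lenti-Klf4 library, with a Ppl to Evpl ratio of FPKM of 0.954, 1.14, 1.06 and 0.981 in replicates 1 to 4. In Lenti-Ctrl, Evpl averaged 0.134 ± 0.0745 FPKM and Ppl was listed at 0 in 3 of 4 libraries.

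Dsp (ENSMUSG00000054889, chromosome 13, 38335270 to 38382553, plus strand) encodes desmoplakin, the obligate link from the desmosome to intermediate filaments. It was at 8.62, 15.8, 16.9 and 13.9 CPM in Lenti-Klf4, against 3.94, 3.30, 6.19 and 3.50 CPM in Lenti-Ctrl. The lowest Lenti-Klf4 library lay above the highest Lenti-Ctrl library, and the log2 fold change was 1.71 (SE 0.237). Gm10129, the only gene in the table that overlaps any of the 10, lies on the other strand at the start of Dsp and had 0 to 2 counts per library.

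Among the armadillo proteins of the set, Jup was the most abundant and went the other way. Jup (ENSMUSG00000001552, chromosome 11, 100259784 to 100288575, minus strand) encodes plakoglobin, which also takes part in adherens junctions and so can be used without desmosomes. It was at 62.5, 84.7, 79.4 and 81.6 CPM in Lenti-Klf4, against 135, 141, 137 and 141 CPM in Lenti-Ctrl. All Lenti-Klf4 libraries were below all Lenti-Ctrl libraries, and the log2 fold change was -0.85 (SE 0.0762). The authors' deposited table of their own DESeq2 comparison has rows for 2 of the 10 genes, Jup and Pkp2. It gives Jup a log2 fold change of -0.93 and Pkp2 one of -0.46. The authors' deposited table classes both as stable, although the adjusted p in their DESeq2 test was 6.31e-38 for Jup and 7.41e-06 for Pkp2.

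The plakophilins, which cluster cadherins and desmoplakin at the plaque, stood in different proportions in the groups. Pkp1 (ENSMUSG00000026413, chromosome 1, 135799133 to 135846945, minus strand) is best known from the upper layers of stratified epithelia. It was at 3.35, 5.50, 5.37 and 4.53 CPM in Lenti-Klf4, against 0.578, 0.444, 0.298 and 0.276 CPM in Lenti-Ctrl, with a log2 fold change of 3.52 (SE 0.280). Pkp3 (ENSMUSG00000054065, chromosome 7, 140658131 to 140670423, plus strand), found in most epithelia, was at 0.899, 1.75, 1.99 and 0.884 CPM in Lenti-Klf4, against 0.381, 0.598, 0.429 and 0.736 CPM in Lenti-Ctrl. The Lenti-Klf4 libraries of Pkp3 fell into a lower and a higher level, and the lower ones were only slightly above the highest Lenti-Ctrl library. Its log2 fold change was 1.37 (SE 0.370).

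Pkp2 (ENSMUSG00000041957, chromosome 16, 16031182 to 16066353, plus strand), the plakophilin of heart muscle and simple epithelia, was at 12.4, 12.6, 11.8 and 10.4 CPM in Lenti-Klf4, against 14.8, 14.2, 17.5 and 14.9 CPM in Lenti-Ctrl. The groups did not overlap, and the log2 fold change was -0.38 (SE 0.0956). With library totals alone the log2 fold change was -0.19 and Pkp2 no longer passed, and it did not pass with limma on log2(FPKM + 1) either. Of the summed FPKM of Pkp1, Pkp2 and Pkp3, Pkp2 held 63.1 ± 6.17% in Lenti-Klf4 and 92.7 ± 1.62% in Lenti-Ctrl (SD, n = 4 each). Pkp1 held 26.4 ± 3.94% in Lenti-Klf4 and 2.57 ± 1.07% in Lenti-Ctrl, and Pkp3 held 10.5 ± 3.33% in Lenti-Klf4 and 4.69 ± 1.57% in Lenti-Ctrl. Pkp2 had the highest level of these plakophilins in each of the 8 libraries.

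**Figure D3:**
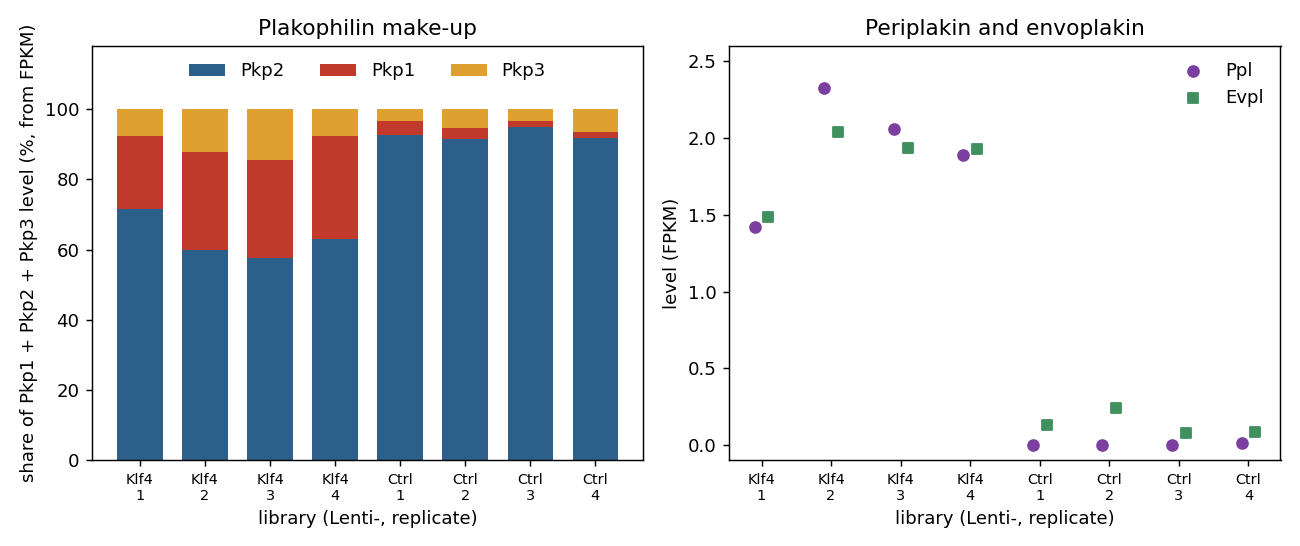
Left, share (%) of the summed FPKM of Pkp1, Pkp2 and Pkp3 that each gene held in each library; Pkp1 held 20.6 to 29.2% in the Lenti-Klf4 libraries and 1.62 to 3.86% in the Lenti-Ctrl libraries. Right, levels (FPKM) of Ppl (circles) and Evpl (squares) in each library, which lie close together at 1.42 to 2.33 FPKM and 1.49 to 2.04 FPKM in Lenti-Klf4.

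The desmosomal cadherins, which make the adhesive contact, were low in both groups. Dsg2 (ENSMUSG00000044393, chromosome 18, plus strand), the desmoglein of simple epithelia and heart, was at 2.19, 3.04, 3.07 and 2.67 CPM in Lenti-Klf4, against 1.99, 2.31, 1.77 and 2.67 CPM in Lenti-Ctrl. Dsc2 (ENSMUSG00000024331, chromosome 18, minus strand), the matching desmocollin, was at 0.831, 0.836, 0.791 and 1.44 CPM in Lenti-Klf4, against 1.25, 0.803, 1.29 and 0.423 CPM in Lenti-Ctrl. The groups overlapped for both genes, with log2 fold changes of 0.33 (SE 0.199) for Dsg2 and 0.04 (SE 0.376) for Dsc2. Dsg2 passed as higher once library totals alone set the scale, at a log2 fold change of 0.52. Dsc2 had only 23 to 102 counts per library, and no difference was detectable at this depth.

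In order of mean level in Lenti-Klf4, Cdsn was at 95.3 FPKM, Jup at 11.9, Pkp2 at 2.18, Ppl at 1.92, Evpl at 1.85, Dsp at 1.42, Pkp1 at 0.926, Pkp3 at 0.376, Dsg2 at 0.328 and Dsc2 at 0.181 FPKM. The ranges of the 4 libraries were apart only between Cdsn and Jup, between Jup and Pkp2, and between Pkp1 and Pkp3. Those of the other neighbours overlapped, which does not show equal levels, since the genes were measured in the same libraries. In every Lenti-Klf4 library Pkp2 lay above Ppl, Evpl above Dsp, Dsp above Pkp1 and Dsg2 above Dsc2. The order of Ppl and Evpl, and that of Pkp3 and Dsg2, varied among the libraries. In Lenti-Ctrl, Jup was at 18.6 FPKM, Pkp2 at 2.48, Dsp at 0.379, Cdsn at 0.323, Dsg2 at 0.228, Dsc2 at 0.152, Evpl at 0.134, Pkp3 at 0.124, Pkp1 at 0.0673 and Ppl at 0.00405 FPKM. There the ranges were apart between Jup and Pkp2, between Pkp2 and Dsp, and between Pkp1 and Ppl. At or above 1 FPKM were 6 of the genes in Lenti-Klf4 and 2 in Lenti-Ctrl.

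The Lenti-Klf4 libraries did not vary alike across the genes. Replicate 1 was the lowest of the 4 for 6 of the 10 genes, namely Ppl, Evpl, Dsp, Jup, Pkp1 and Dsg2, whereas it was the lowest for 27.3% of all genes tested. Relative to the mean of the other 3 Lenti-Klf4 libraries it held 0.555 times the CPM of Dsp, 0.652 times that of Pkp1, 0.688 times that of Ppl and 0.764 times that of Jup. For Cdsn it was the highest, at 1.09 times the mean of the others. Replicate 1 was also the deepest Lenti-Klf4 library, at 82847723 counts against 57950960 to 61367261 in the others. A part of depth in these differences was not tested. Klf4, whose counts may or may not include vector RNA, was also lowest in this library, at 201 CPM against 234 to 241 CPM in the others. Summed markers of fibroblasts, mesothelium, macrophages, endothelium and hepatocytes were lowest in this library too, and those of cholangiocytes were highest. Most of the cholangiocyte sum was Spp1, at 652 CPM in replicate 1 and 571 to 597 CPM in the others. Of the next most abundant cholangiocyte markers, Krt7 and Krt19 were lowest in replicate 1 and Sox9 was highest. Fibroblast markers, for example, summed to 11679 CPM in replicate 1 and to 12874 to 13341 CPM in the others, and endothelial markers to 100.2 and 131 to 139 CPM. With replicate 1 left out, the log2 fold changes were 1.87 for Dsp, 3.64 for Pkp1, 8.88 for Ppl, 3.63 for Evpl, -0.77 for Jup and 7.95 for Cdsn, and the same numbers of genes passed, 6 higher and 2 lower.

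**Figure D4:**
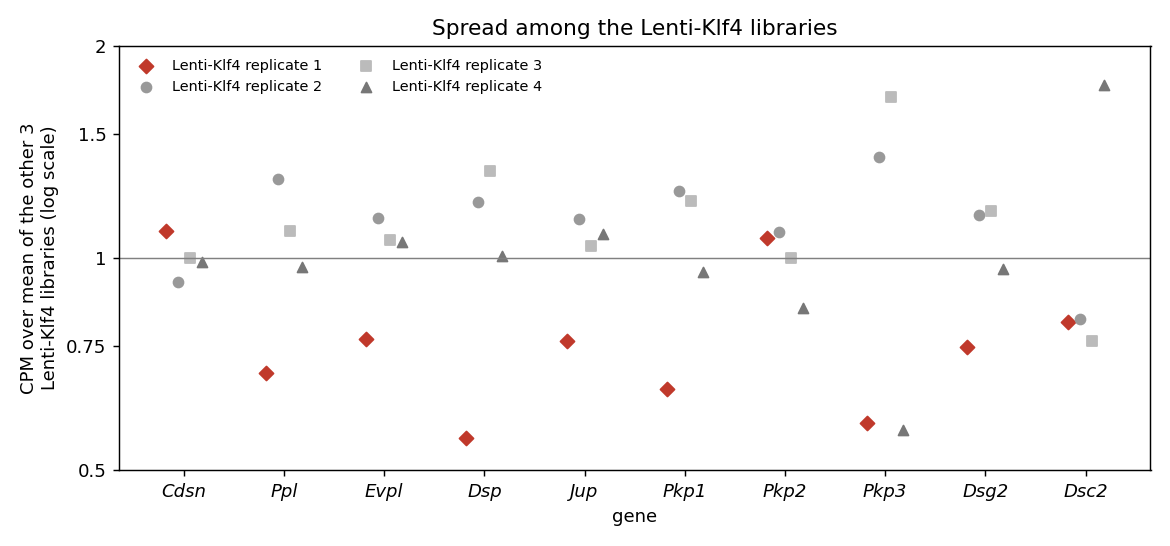
CPM of each desmosome gene in each Lenti-Klf4 library, divided by the mean of the other 3 Lenti-Klf4 libraries (log scale, 1 marks no difference). Replicate 1 (diamonds) lies below 1 for every gene except Cdsn, at 1.09, and Pkp2, at 1.07.

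Markers of other cell types, only some of which carry desmosomes, moved in these libraries as well. For comparison, 37.5% of all genes tested rose and 34.7% fell. The 10 mesothelial markers summed to 657 to 804 CPM in Lenti-Klf4 and 209 to 219 CPM in Lenti-Ctrl, and 8 of them rose and 2, Lrrn4 and Wt1, fell. The 12 cholangiocyte markers summed to 704 to 756 CPM in Lenti-Klf4 and 399 to 415 CPM in Lenti-Ctrl. Of the 11 tested, 5 rose, 2 fell and 4 did not pass. Spp1 alone made up 601 ± 35.6 CPM of that sum in Lenti-Klf4 and 364 ± 7.36 CPM in Lenti-Ctrl. The epithelial adhesion genes Epcam (0.991 ± 0.230 CPM in Lenti-Klf4, 1.26 ± 0.113 CPM in Lenti-Ctrl) and Cdh1 (5.20 ± 0.456 CPM in Lenti-Klf4, 5.67 ± 0.925 CPM in Lenti-Ctrl) did not pass. No mesothelial or cholangiocyte marker was at 0 in all libraries of a group. Macrophage markers summed to 173 to 239 CPM in Lenti-Klf4 and 5282 to 5683 CPM in Lenti-Ctrl, with Clec4f at 0 in every Lenti-Klf4 library, and all 12 fell. Endothelial markers summed to 100.2 to 139 CPM in Lenti-Klf4 and 1154 to 1165 CPM in Lenti-Ctrl, and all 10 fell. Hepatocyte markers summed to 14.6 to 19.7 CPM in Lenti-Klf4 and 39.4 to 44.7 CPM in Lenti-Ctrl, where Apoa1, Ttr and Cyp2e1 were at 0. Apob carried the Lenti-Ctrl sum, at a mean of 6.71 CPM in Lenti-Klf4 and 41.0 CPM in Lenti-Ctrl, and without it the sums were 9.63 to 12.5 CPM in Lenti-Klf4 and 0.280 to 0.957 CPM in Lenti-Ctrl. The part of any of these cells in the desmosome values was not tested.

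A list of 10 other desmosome genes, 9 of them in the table, covered mainly the cadherins of stratified epithelia. Of the 6 tested, 5 rose and 1 fell, where 37.5% of all genes tested rose and 34.7% fell. Dsg1b, Dsg3 and Dsc3 reached 10 counts in every Lenti-Klf4 library but not in every Lenti-Ctrl library, so 3 of the 5 were tested only through the group in which they are high. Dsg1b, Dsg3 and Dsc3, named after their values were seen, are cadherins of the epidermis. Dsg1a, Dsg4 and Dsc1, the other cadherins of the list that were counted, were too low to be tested. Over all libraries of a group they had 30, 0 and 4 counts in Lenti-Klf4 and 0, 2 and 17 counts in Lenti-Ctrl. Dsg1b was at 0.919 ± 0.102 CPM in Lenti-Klf4 (SD, n = 4) and had no count in Lenti-Ctrl, at least 76.3-fold higher with a floor of 3 counts over the group, though Dsg1a is a close copy and the split of reads between them is uncertain. Dsg3 was at least 29.5-fold higher, at 0.362 ± 0.111 CPM in Lenti-Klf4 with no count in Lenti-Ctrl. Dsc3 was at 0.990, 1.72, 1.66 and 0.915 CPM in Lenti-Klf4 and had 4 counts in 1 Lenti-Ctrl library and none in the others. These levels are low in absolute terms, at or below 0.242 FPKM on average for each of the 3 genes in Lenti-Klf4.

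The more broadly expressed members of that list differed less. Pkp4, a plakophilin relative found at adherens junctions as well, rose slightly, at 46.0 ± 2.02 CPM in Lenti-Klf4 and 35.9 ± 2.08 CPM in Lenti-Ctrl (log2 fold change 0.36, SE 0.0553, adjusted p = 8.07e-05 in edgeR). Perp, a tetraspan protein of desmosomes and a p53 target, rose to 16.2 ± 1.63 CPM in Lenti-Klf4 against 11.5 ± 0.896 CPM in Lenti-Ctrl, with a log2 fold change of 0.49 (adjusted p = 5.46e-04 in edgeR). Kazn, encoding kazrin, which binds periplakin, fell to 14.4 ± 2.73 CPM in Lenti-Klf4 against 32.9 ± 2.16 CPM in Lenti-Ctrl (log2 fold change -1.20, adjusted p = 1.75e-06 in edgeR).

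By count, more intermediate filament genes, whose products desmosomes anchor, rose than fell in Lenti-Klf4. Of 13 tested on a list of 16, 10 rose and 3 fell, where 37.5% of all genes tested rose and 34.7% fell. Vim, among the 3, had by far the highest level on the list. It fell to 2149 ± 16.9 CPM in Lenti-Klf4 against 3166 ± 49.7 CPM in Lenti-Ctrl (log2 fold change -0.56). Krt6a, Krt16 and Krt17 among the 10, and Krt20 among the 3, reached 10 counts in every library of 1 group only, so they were tested through the group in which they are high. Krt14, a keratin of basal epidermis, was at 39.7 ± 5.49 CPM in Lenti-Klf4 and 0.382 ± 0.139 CPM in Lenti-Ctrl, and Krt80, a keratin found at desmosomes of differentiating epithelia, at 40.7 ± 2.32 CPM in Lenti-Klf4 and 2.17 ± 0.600 CPM in Lenti-Ctrl (log2 fold changes 6.69 and 4.22, adjusted p = 1.19e-11 and 8.32e-11 in edgeR). Krt17, a keratin of stressed and appendage epithelium, was at 2.54 ± 0.242 CPM in Lenti-Klf4 and 0.288 ± 0.197 CPM in Lenti-Ctrl (SD, n = 4 each). Des, encoding the muscle filament desmin, fell to 15.3 ± 1.61 CPM in Lenti-Klf4 against 214 ± 2.55 CPM in Lenti-Ctrl (log2 fold change -3.81, adjusted p = 1.92e-13 in edgeR). The keratins Krt8, Krt18 and Krt19 are also among the 10 mesothelial markers given above.

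On a list of 8 hemidesmosome genes and other plakins, 4 rose and 4 fell, against 37.5% and 34.7% of all genes tested. The median log2 fold change of the list was -0.19. Eppk1, 1 of those that rose, was tested only through the Lenti-Klf4 libraries. The widely expressed plakins Dst (dystonin), Macf1 and Plec (plectin) fell, with log2 fold changes of -1.58, -1.28 and -1.27 (adjusted p = 8.46e-12, 2.92e-11 and 8.71e-11 in edgeR). By level they still exceeded the desmosomal plakins, with Plec at 10.8 ± 0.728 FPKM, Macf1 at 6.13 ± 0.405 FPKM and Dst at 4.54 ± 0.316 FPKM in Lenti-Klf4. Itgb4, the integrin chain of hemidesmosomes, rose to 68.8 ± 10.6 CPM in Lenti-Klf4 against 16.4 ± 0.903 CPM in Lenti-Ctrl (log2 fold change 2.07, adjusted p = 1.89e-09 in edgeR).

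Adherens junction genes, the junction type that fibroblasts share with epithelia, more often fell than rose. Of 15 genes, 4 rose, 10 fell and 1, Cdh1, did not pass, where 37.5% of all genes tested rose and 34.7% fell. The median log2 fold change of the list was -0.37. Ctnna1 and Ctnnb1 are among the 10, with log2 fold changes of -0.10 and -0.07 that are smaller than the shift between scalings, which leaves 8. Vcl (vinculin) fell to 181 ± 7.71 CPM in Lenti-Klf4 against 724 ± 14.3 CPM in Lenti-Ctrl, and Nectin1, an adhesion receptor, to 12.5 ± 0.715 CPM in Lenti-Klf4 against 64.5 ± 4.21 CPM in Lenti-Ctrl (adjusted p = 1.45e-13 and 7.77e-12 in edgeR, log2 fold change -2.37 for Nectin1). Nectin4 was at 0.407 ± 0.115 CPM in Lenti-Klf4 and 1.96 ± 0.753 CPM in Lenti-Ctrl (log2 fold change -2.27, adjusted p = 9.49e-05 in edgeR). Afdn, encoding the nectin-binding protein afadin, rose to 184 ± 5.84 CPM in Lenti-Klf4 against 58.0 ± 1.92 CPM in Lenti-Ctrl (log2 fold change 1.67, adjusted p = 1.46e-12 in edgeR).

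**Figure D5:**
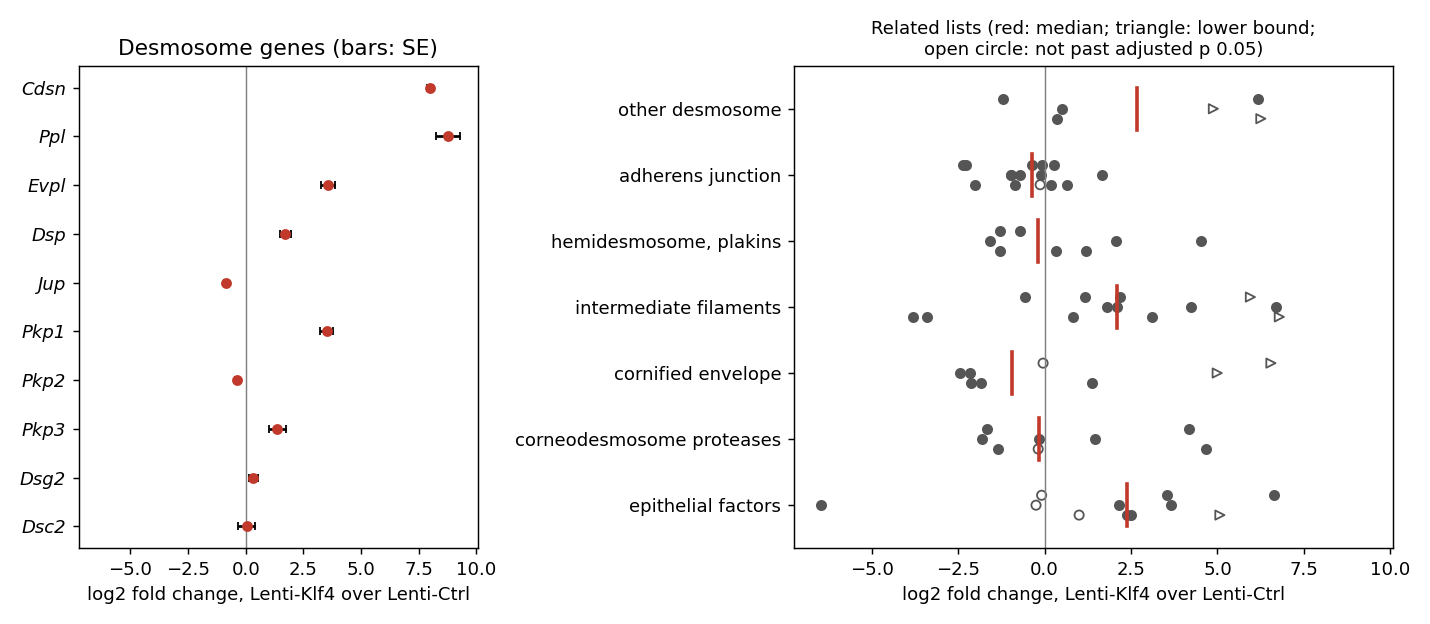
Left, log2 fold changes (Lenti-Klf4 over Lenti-Ctrl) of the 10 desmosome genes with their standard errors. Right, the tested genes of 7 related lists, with the list median in red (-0.37 for adherens junctions); triangles are lower bounds for genes with no count in Lenti-Ctrl and open circles did not pass an adjusted p of 0.05.

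Cdsn also had the highest mean FPKM of the 10 genes over the 8 libraries. Its profile was compared with those of tested genes that had a mean of at least 1 CPM and no Gm or Rik name. Among these, the genes whose profile over the 8 libraries lay closest to it were Cwc22rt6, Cwc22rt4 and Prl2c2. The root mean square distance of their centred log2 CPM from that of Cdsn was 0.277, 0.360 and 0.363. Prl2c2 was at 377 ± 27.8 CPM in Lenti-Klf4 and 1.44 ± 0.351 CPM in Lenti-Ctrl, and Cwc22rt6 at 22.7 ± 1.16 CPM in Lenti-Klf4 and 0.0573 ± 0.0316 CPM in Lenti-Ctrl. All 3 belong to families of close copies, and how reads were split among the copies is uncertain.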

How the data were processed

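The authors deposited raw counts per gene for 8 libraries and, in the same table, FPKM values. A second table that the authors deposited holds their DESeq2 comparison, with log2 fold changes, p-values, a mean normalised signal and scores such as the standard error, and 2 of the 10 genes have a row there. Per the submitters' processing notes, cutadapt 1.9, HISAT2 2.2.1, StringTie 2.1.6, DESeq2 and GRCm39 were used. The counting method and strand setting are not given in the sources used here.

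Counts were tested over the whole table in R 4.3.3 with edgeR 4.0.16 (filterByExpr, TMM, quasi-likelihood test, a single group term) and Benjamini-Hochberg adjustment over 18439 genes at 0.05. CPM are scaled by the TMM factors. The SE given with a log2 fold change is its absolute value divided by the square root of the quasi-likelihood F statistic. It was not fitted directly and is approximate. FPKM served to compare genes. On simulated data with 200 changed genes among 17998, 69.0% of those changed 2-fold were recovered, with 11 false calls. All other genes were simulated without a difference, whereas 72.2% of genes passed in the data, so these rates do not carry over to the calls. Lower bounds of folds take 3 counts per group as the floor and cover counting error only. DESeq2 1.42.0 and limma 3.58.1 were alternatives, with other scalings, filters, a replicate block and left-out libraries. Plots used matplotlib 3.10.9.

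The 10 genes and the lists were chosen with earlier results of these data known. From each related list the rule named up to 4 genes past the threshold with the largest change at a mean of at least 1 CPM, and up to 2 abundant genes not past it. Vim was added for its level, and Dsg1b, Dsg3 and Dsc3 after their values were seen. Dsg1c, Krt5, Flg2 and Rptn were not analysed here.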

Additional observations from a re-analysis of the deposited data

Results flagged for a closer look

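In 84 sets of 4 libraries, 6 held a library whose gap to the nearest other was large for the range of its group. Chance gives about 5%. The sets were the 10 desmosome genes and the genes that the rule named from the related lists, in each group. Dsc2 was at 1.44 CPM in Lenti-Klf4 replicate 4 and at 0.791 to 0.836 CPM in the other 3 Lenti-Klf4 libraries. Ppl was at 0.129 CPM in Lenti-Ctrl replicate 4 and at 0 in the other 3 Lenti-Ctrl libraries. Itgb4 was at 53.0 CPM in Lenti-Klf4 replicate 1 and at 72.3 to 75.2 CPM in the others. Ivl was at 1.16 CPM in Lenti-Klf4 replicate 1 and at 1.55 to 1.63 CPM in the others. In Lenti-Ctrl, Itgb4 was at 17.8 CPM in replicate 2 and at 15.9 to 16.0 CPM in the others, and Macf1 was at 508 CPM in replicate 1 and at 488 to 489.9 CPM in the others.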

How the results depend on the processing

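Of the 10 desmosome genes, 6 passed as higher and 2 as lower, with RLE factors, DESeq2 or no filter too. With library totals alone and in each of the 3 fits of FPKM with limma, 7 passed as higher and 1 as lower, since Dsg2 passed and Pkp2 did not. Dsg2 had these values in those 4 settings (log2 fold change 0.52, 0.11, 0.39 and 0.11). Dsc2, which did not pass in any setting that tested it, changed sign without Lenti-Klf4 replicate 4 (-0.21), without Lenti-Ctrl replicate 2 (-0.03) and without Lenti-Ctrl replicate 4 (-0.20), with a range of -0.21 to 0.22 over the left-out libraries. The log2 fold change of Ppl ranged from 8.24 to 12.8 over the left-out libraries, and the highest value, without Lenti-Ctrl replicate 4, rests on a group at 0 and is no bound. A filter of 1 CPM in at least 4 libraries left 5 desmosome genes higher and 2 lower, and 3 calls among other desmosome genes (6 before), 4 among cornified envelope genes (7 before) and 4 among corneodesmosome proteases (7 before), since it tests fewer genes. With libraries left out in turn, 6 to 7 of the 10 genes reached 1 FPKM in Lenti-Klf4 and 2 in Lenti-Ctrl. The main fit was not paired, since the labels state no source shared by libraries with the same replicate number. Libraries with the same number deviated together weakly (r = 0.0194 to 0.0486, against -0.0425 to 0.0219 for other pairs). Of the 4 Lenti-Klf4 libraries, 3 correlated best with their own number. With a replicate block, 6 desmosome genes passed as higher and 2 as lower, and 6730 and 6188 of all genes.

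Low counts limit Dsc2, Pkp3, Pkp1 and, in Lenti-Ctrl, Ppl, Evpl and Cdsn.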

Other observations

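Genes of late epidermal differentiation were found in both directions. Of 8 cornified envelope genes tested, 3 rose and 4 fell, where 37.5% of all genes tested rose and 34.7% fell. These counts describe only the genes listed. Of the 8, 4 reached 10 counts in every library of 1 group only, among them Tgm1, Cnfn and Krtdap. Scel (sciellin) fell to 9.59 ± 1.16 CPM in Lenti-Klf4 against 51.9 ± 2.17 CPM in Lenti-Ctrl, and Ivl (involucrin) to 1.49 ± 0.220 against 5.30 ± 0.425 CPM (SD, n = 4 each; adjusted p = 6.14e-11 and 6.75e-07 in edgeR's quasi-likelihood test). Sprr1a, a small proline-rich envelope protein, was at 1.54 ± 0.393 CPM in Lenti-Klf4 and 6.71 ± 0.920 CPM in Lenti-Ctrl (adjusted p = 9.51e-07 in edgeR). Sbsn (suprabasin) rose to 8.48 ± 1.11 CPM in Lenti-Klf4 against 3.27 ± 1.13 CPM in Lenti-Ctrl (adjusted p = 1.08e-04 in edgeR). Tgm1, the transglutaminase that crosslinks the envelope, was at 0.345 ± 0.190 CPM in Lenti-Klf4 and 0.353 ± 0.280 CPM in Lenti-Ctrl and did not pass.

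Of 8 corneodesmosome proteases and inhibitors tested, 3 rose and 4 fell, against 37.5% and 34.7% of all genes tested. Klk7 and Klk14 among the 3 were tested only through Lenti-Klf4. Klk8, a kallikrein protease, fell to 2.51 ± 0.685 CPM in Lenti-Klf4 against 8.74 ± 0.695 CPM in Lenti-Ctrl, and the inhibitor Spint1 to 2.55 ± 0.271 against 8.14 ± 0.442 CPM (adjusted p = 3.14e-06 and 1.47e-07 in edgeR). St14, encoding matriptase, was at 1.41 ± 0.284 CPM in Lenti-Klf4 and 3.55 ± 0.728 CPM in Lenti-Ctrl (adjusted p = 1.28e-04 in edgeR). Ctsl passed as lower by -0.16 on the log2 scale, less than the shift between scalings, and Spint2 did not pass. Of 11 epithelial transcription factors tested, 7 rose, 1 fell and 3 did not pass, where 37.5% of all genes tested rose and 34.7% fell. Of the 7, 4 (Tfap2a, Trp63, Ehf and Elf5) reached 10 counts in every library only in Lenti-Klf4, and Prdm1, the 1 that fell, only in Lenti-Ctrl, so each was tested through the group in which it is high. Tfap2a was at 13.6 ± 1.26 CPM in Lenti-Klf4 and 0.145 ± 0.166 CPM in Lenti-Ctrl, Klf5 at 45.3 ± 3.59 CPM in Lenti-Klf4 and 3.85 ± 0.743 CPM in Lenti-Ctrl, and Gata3 at 6.09 ± 1.09 CPM in Lenti-Klf4 and 1.15 ± 0.303 CPM in Lenti-Ctrl (adjusted p = 6.84e-11 for Klf5 and 9.04e-07 for Gata3 in edgeR). Prdm1 was at 0.0269 ± 0.0318 CPM in Lenti-Klf4 and 2.65 ± 0.338 CPM in Lenti-Ctrl. Ovol1 did not pass, at 0.295 ± 0.377 CPM in Lenti-Klf4 and 0.149 ± 0.107 CPM in Lenti-Ctrl.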
